A study of Homo sapiens with 8 samples.

Results

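EZH2 peaks were examined along a 145 kb stretch of chromosome 1 that holds SAMD11, HES4 and AGRN, in a pair of myeloma cell lines that differ in MMSET. The members are all EZH2 peaks that share at least 1 base with chr1:840000-985000 (hg18), which holds SAMD11 at about 850980 to 869820, HES4 near 925000 and AGRN from about 945370. The stretch was chosen from the heights and widths of these same peaks, so every difference between the lines given here is a description and carries no test. There were 93 member peaks of 19721 in all, 28 and 36 in runs 1 and 2 of NTKO cells and 6 and 23 in those of TKO cells. By position, 6 lay before SAMD11, 24 in the SAMD11 zone (the gene and 2 kb on either side), 20 between SAMD11 and HES4, 6 within 5 kb of HES4 and 37 from 2 kb before AGRN to the end of the stretch. None lay wholly between the HES4 and AGRN zones, since a peak was counted in a zone when it shared a base with it.

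Both lines derive from KMS11, a t(4;14) multiple myeloma line, by targeting of 1 MMSET allele. NTKO cells retain the rearranged allele and express MMSET at high levels, and TKO cells retain the wild-type allele, with low MMSET. The labels give the same passages, 15 to 20, for both and name no treatment. Chromatin was precipitated with an anti-Ezh2 antibody from 2 samples of each line, the independent replicates run 1 and run 2 (values given for a line's runs are in this order), and 4 input samples entered only through the authors' peak calls. Each genotype is represented by 1 line, so an effect of MMSET cannot be told apart from any other difference between the lines.

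EZH2 is the catalytic subunit of Polycomb repressive complex 2, which trimethylates lysine 27 of histone H3 (H3K27me3) at silenced genes and often at CpG-rich promoters. MMSET, also called NSD2, dimethylates lysine 36 of the same histone tail, a mark that hinders methylation of lysine 27. SAMD11 encodes a sterile alpha motif protein, HES4 a basic helix-loop-helix repressor of the Hes family of Notch targets, and AGRN the proteoglycan agrin, which organises the neuromuscular junction. In the RefSeq gene order (GRCh38.p14) 6 protein-coding genes lie between SAMD11 and AGRN, namely NOC2L, KLHL17, PLEKHN1, PERM1, HES4 and ISG15. No peak was assigned to any of these by annotation, since no annotation of the lists' build was used here.

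The promoter sequences of SAMD11 and HES4 are shown because the first lay under an EZH2 peak in all 4 lists at its hg18 position and the second under none. They are RefSeq sequences of 300 bases (GRCh38.p14), from 250 bases before to 50 bases after the gene start, read in the direction of the gene, with each CG dinucleotide in capitals. SAMD11 is at chr1:925481-925780 on the plus strand and HES4 at chr1:1000048-1000347 on the minus strand.
SAMD11: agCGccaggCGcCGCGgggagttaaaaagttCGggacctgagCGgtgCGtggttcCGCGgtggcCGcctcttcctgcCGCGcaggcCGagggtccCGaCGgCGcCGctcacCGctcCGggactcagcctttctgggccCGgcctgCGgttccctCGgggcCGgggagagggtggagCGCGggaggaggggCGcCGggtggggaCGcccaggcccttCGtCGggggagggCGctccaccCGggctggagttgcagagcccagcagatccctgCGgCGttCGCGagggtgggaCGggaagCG
HES4: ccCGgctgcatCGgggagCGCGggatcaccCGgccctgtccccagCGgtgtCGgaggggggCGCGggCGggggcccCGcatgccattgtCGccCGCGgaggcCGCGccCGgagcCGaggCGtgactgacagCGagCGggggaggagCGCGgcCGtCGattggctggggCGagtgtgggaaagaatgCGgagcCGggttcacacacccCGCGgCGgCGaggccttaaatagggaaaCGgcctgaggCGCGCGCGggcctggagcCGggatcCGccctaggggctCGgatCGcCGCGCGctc
The letters CG read the same on both strands and cannot overlap themselves. The SAMD11 promoter held 38 CG dinucleotides at a GC content of 75.0%, and the HES4 promoter 44 at 75.7%. Of 35116 RefSeq promoters of this length, 96.0% held at least 1 CG, the median was 14, 9.91% had as many as SAMD11 and 4.19% as many as HES4. Both promoters were therefore CpG-rich, although EZH2 peaks covered the start of only 1 of these 2 genes. AGRN is named only.

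The lists differed by run as well as by line. Over the 326 regions of the genome with a peak in all 4 lists, the median height (reads at the summit, as deposited) was 97.5 and 163.5 in the NTKO runs and 47.0 and 138.5 in the TKO runs. The depth of the libraries is unknown from the lists and the heights carry no stated scaling to it, so a taller peak cannot be told apart from more reads. With 2 samples per line an exact permutation test could not fall below p = 0.333 (2-sided).

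Along the whole stretch EZH2 peaks covered more DNA in NTKO than in TKO cells in both runs. They covered 33.6 kb and 66.2 kb in the NTKO runs, against 4.63 kb and 28.0 kb in the TKO runs. Within the limits of the stretch this was 22.9%, 44.8%, 3.19% and 19.3% of its bases. Neither the peak numbers nor the covered lengths overlapped between the lines. Of 246 windows of the same length with a peak in all 4 lists, both NTKO peak numbers were above both TKO peak numbers in 13.8% and the covered lengths were apart in this way in 44.3%. The NTKO to TKO ratio of peak number was 4.67 in run 1 and 1.57 in run 2, and that of covered length 7.26 and 2.36. The whole lists gave ratios of 4.57 and 1.92 for peak number and 6.71 and 2.33 for covered length, so the stretch lay near the ratio of its own run in each case.

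The stretch was densely occupied in both lines. Its share of a sample's peaks was 0.942% and 0.34% in the NTKO runs, and 0.922% and 0.417% in the TKO runs. Peaks of at least 1 kb made up 42.9%, 41.7%, 16.7% and 52.2% of the members of NTKO run 1, NTKO run 2, TKO run 1 and TKO run 2, against 20.2%, 18.7%, 10.4% and 15.7% of the lists. Among windows of the same length, 5 of 931 with a peak had more covered DNA in NTKO run 1, 11 of 2083 in NTKO run 2, 7 of 341 in TKO run 1 and 24 of 1487 in TKO run 2.

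**Figure D1:**
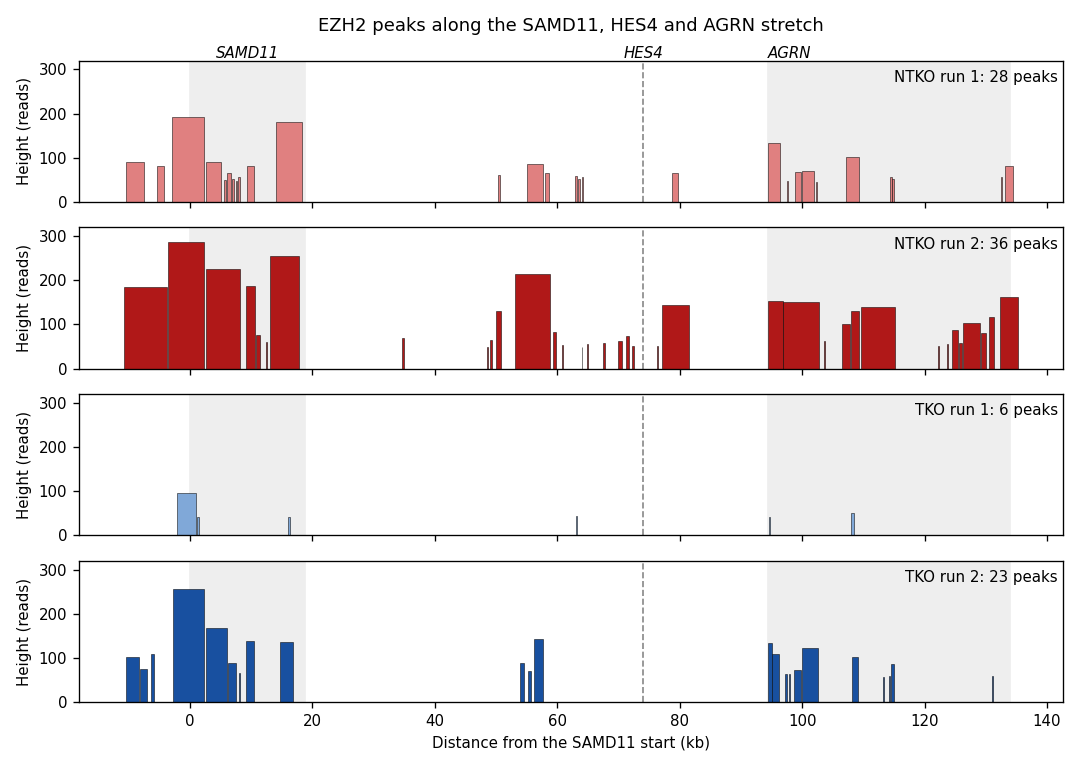
Each bar is 1 EZH2 peak, drawn from its start to its end (x axis, kb from the SAMD11 start) and to its height (y axis, reads at the summit), with 1 panel per sample. Grey marks SAMD11 and the stretch from the AGRN start on, and the dashed line marks HES4. The tallest peak of each panel stands at the SAMD11 start, with heights of 192, 286, 96 and 257, and TKO cells have no peak near HES4.

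At the SAMD11 start a single broad peak was present in all 4 samples. It ran over chr1:848156-853263 and chr1:847446-853388 in the NTKO runs and chr1:848875-851971 and chr1:848185-853371 in the TKO runs. Its height was 192 and 286 reads in the NTKO runs and 96 and 257 in the TKO runs. The lines overlapped, since the TKO run 2 peak stood above the NTKO run 1 peak. Its width was 5107 bp, 5942 bp, 3096 bp and 5186 bp in the same order, and TKO run 1 had another peak of 308 bp beside it. In its own list this peak ranked 18 of 2972, 5 of 10582, 21 of 651 and 5 of 5516 by height, so it was among the tallest EZH2 peaks in each sample of either line.

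The mean difference in log2 height at SAMD11 was 0.58 (NTKO minus TKO, a 1.49-fold ratio), against a pooled SD between runs of 0.77 on the log2 scale (n = 2 per line). It was smaller than the spread between runs. The difference turned to -0.13 without TKO run 1, and to -0.07 when heights were divided by each sample's median over the 326 regions found in all 4 lists. The direction at the SAMD11 start thus did not hold under either change. Without TKO run 1, both NTKO runs were set against TKO run 2 alone, so the difference between runs entered this value. Within each run the unscaled log2 difference was 1.00 in run 1 and 0.15 in run 2.

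From before SAMD11 to near its end, the members of NTKO run 2 were less than 1 kb apart. These 7 peaks formed a block of 28669 bp over chr1:840194-868863, of which the gaps made up 2904 bp. Only members were counted. A peak of the same sample outside the stretch, chr1:838820-839905, also lay less than 1 kb from the block, so the limit of the stretch cut it. The longest such block had 10989 bp and 7 peaks in NTKO run 1, 3588 bp and 2 peaks in TKO run 1, and 13309 bp and 5 peaks in TKO run 2. In all 4 samples that block included the SAMD11 start.

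Just inside the gene, NTKO run 2 had 1 peak of 5641 bp and 226 reads over chr1:853567-859208, where TKO run 2 had 3 peaks of up to 169 reads and NTKO run 1 had 6 peaks of up to 90 reads. A narrower peak, which ran over chr1:860159-861612 in NTKO run 2, reached 80 reads in NTKO run 1, 188 in NTKO run 2 and 139 in TKO run 2. TKO run 1 had no peak at either place. At both, TKO run 2 stood above NTKO run 1, so the lines overlapped.

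The region towards the SAMD11 end, chr1:864145-869377 over all lists, had the largest NTKO to TKO ratio of the regions found in all lists. Its height was 181 and 256 reads in the NTKO runs and 41 and 137 in the TKO runs. Both NTKO samples lay above both TKO samples. The peak was 4248 bp and 4718 bp wide in the NTKO samples, and 450 bp and 2195 bp in the TKO samples, again without overlap. This was not particular to the site. Covered lengths at the AGRN start were 1959 bp and 2462 bp against 113 bp and 1724 bp. At chr1:957465-960291 they were 2032 bp and 2725 bp against 456 bp and 1008 bp. The share of all regions found in every list with such a gap in length is not given here. At the SAMD11 end the mean level of reads inside the peak was 108.8 and 125.8 in NTKO cells and 32.9 and 66.1 in TKO cells. The NTKO to TKO ratio of height was 4.41 in run 1 and 1.87 in run 2. The mean log2 difference of 1.52 (SD over runs 0.88, n = 2) ranked 1 of 326 regions found in all 4 lists, whose median was 0.55, and this rank was known when the stretch was chosen. The TKO run 1 peak of 41 reads had a −log10 p of 15.9, near the authors' threshold of 15, and stood above 30.9% of its list. In run 1, 99.5% of all pairs of NTKO and TKO peaks had a smaller height ratio, and in run 2 95.2%. After division by each sample's median the log2 difference was 1.09 in run 1 and 0.66 in run 2.

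Over the SAMD11 zone, peaks covered 14748 bp and 18676 bp in the NTKO runs and 3854 bp and 13658 bp in the TKO runs. The NTKO samples were both above the TKO samples, although NTKO run 1 and TKO run 2 were close. Such a gap in covered length was seen in 44.3% of the 246 windows of 145 kb with a peak in all 4 lists, which are longer than this zone. The mean log2 difference in covered length was 1.19 (2.29-fold), with a pooled SD between runs of 0.93. Without TKO run 1 it fell to 0.28 (1.22-fold).

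Between SAMD11 and HES4 the main site was a cluster at chr1:904143-909755. NTKO run 2 had 1 peak of 5612 bp and 215 reads there, NTKO run 1 had 2 peaks of up to 85 reads, and TKO run 2 had 3 peaks of up to 144 reads. TKO run 1 had none. TKO run 2 was again above NTKO run 1. The other 14 members in this interval were 138 to 845 bp wide and 43 to 130 reads high. A site at chr1:913873-914202 followed the run and not the line: it had a peak of 59 reads in NTKO run 1 and of 43 reads in TKO run 1, and none in either run 2 sample.

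At HES4 no list had a peak over position 925000. The nearest peak was 4704 bp and 1534 bp away in the NTKO runs and 10807 bp and 16269 bp in the TKO runs. Within 5 kb there were 6 peaks, all from NTKO cells. NTKO run 1 had 1, of 66 reads and 935 bp. NTKO run 2 had 5, of which 4 had heights between 51 and 74 reads, and the widest, chr1:928146-932465, reached 144 reads. That peak and the NTKO run 1 peak overlapped, so 1 site near HES4 was found in both NTKO samples and in neither TKO sample. The summits of this site lay 5141 bp and 5502 bp past position 925000 in the NTKO runs, so only the edges of its peaks came within 5 kb. With no TKO peak, no difference in height or covered length can be given. Absence from a list is not absence of EZH2, since a site is listed only past the authors' threshold. Of all NTKO peaks, 86.6% in run 1 and 70.7% in run 2 had no TKO peak of the same run, and among the members these were 23 of 28 and 24 of 36.

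**Figure D2:**
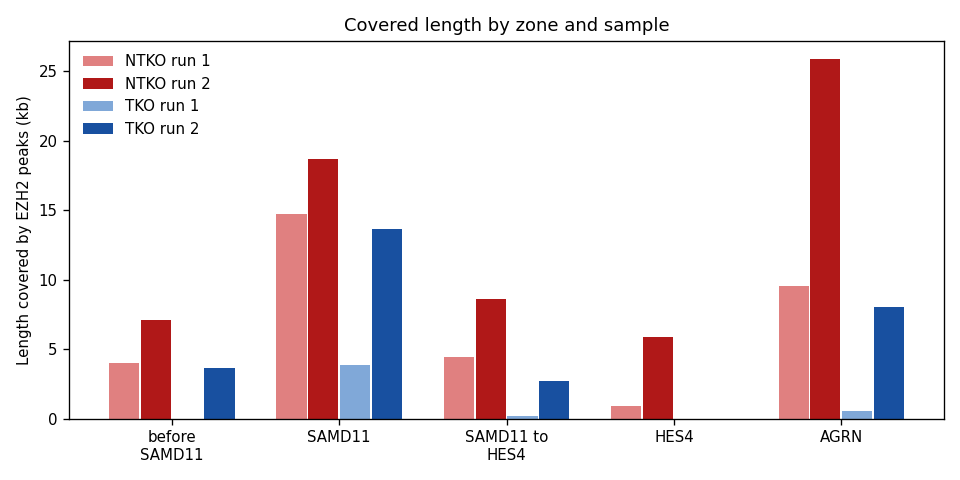
Bars give the length covered by EZH2 peaks (y axis, kb) in each zone of the stretch (x axis), with 1 bar per sample and no error bars. The SAMD11 bars of NTKO run 1 and TKO run 2 are close at 14748 and 13658 bp, while the HES4 zone has bars in NTKO cells only.

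At the AGRN start the height was 134 and 153 reads in the NTKO runs and 41 and 134 in the TKO runs. NTKO run 1 and TKO run 2 were equal, so only TKO run 1 stood apart. The NTKO peaks were 1959 bp and 2462 bp wide and covered the gene's start. TKO run 1 had 1 peak of 113 bp that began 277 bp inside the gene. TKO run 2 had 2 peaks of 623 bp and 1101 bp, the first of which began 6 bp inside it. The start is given only as about 945370, and the NTKO peaks began 29 bp and 20 bp before it. Whether NTKO cells and TKO run 2 differed in covering the start therefore cannot be told. The NTKO to TKO ratio of height was 3.27 in run 1 and 1.14 in run 2.

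Downstream of the AGRN start, a region at chr1:957465-960291 was also found in all 4 lists. Its height was 101 and 130 reads in the NTKO runs and 51 and 103 in the TKO runs. TKO run 2 was thus within 2 reads of NTKO run 1. Between these sites, NTKO run 2 had a peak of 5798 bp and 151 reads over chr1:947924-953722, where NTKO run 1 and TKO run 2 had 4 peaks each, of up to 70 and 122 reads. Next to it, a peak of 5617 bp and 140 reads over chr1:960544-966161 in NTKO run 2 faced 3 TKO run 2 peaks of up to 87 reads that together covered 795 bp, and 2 NTKO run 1 peaks of 567 bp in sum.

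The far part of the AGRN zone was occupied mainly in NTKO run 2. From 973184 to 982254 this sample had 7 peaks of 51 to 116 reads. NTKO run 1 and TKO run 1 had none there, and TKO run 2 had 1, of 59 reads and 155 bp. At the end of the stretch NTKO run 2 reached 162 reads over chr1:983288-986261, its tallest peak in the AGRN zone, and NTKO run 1 reached 81 reads.

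Over the AGRN zone, peaks covered 9524 bp and 25919 bp in the NTKO runs and 569 bp and 7999 bp in the TKO runs. The lines did not overlap, but NTKO run 1 and TKO run 2 were again the closest pair. Covered lengths were apart in this way in 44.3% of the 246 windows of 145 kb with a peak in all 4 lists. A share over spans as short as the zone is not given here. The mean log2 difference was 2.88 (7.36-fold) with a pooled SD between runs of 2.04, and 0.97 (1.96-fold) without TKO run 1. For the tallest peak of the zone the log2 difference was 0.83 (1.78-fold) with a pooled SD of 0.71, and 0.14 (1.10-fold) without TKO run 1. The tallest peak was not at the same site in every sample. Its summit was at 945754 and 985256 in the NTKO runs and at 959140 and 945689 in the TKO runs. The value is therefore not a height difference at a single AGRN site.

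Overlapping peaks of all 4 lists joined into 37 regions that hold members, and 11858 over the genome. Here a region counts as found in a list also where its peak lies just past the end of the stretch, as the TKO run 2 peak under chr1:983288-986261 does. A peak in every list was found in 4 of the 37 regions (2.75% of all regions), in all but TKO run 1 in 7 (8.57%) and in both NTKO samples only in 3 (4.7%). A further 20 were found in NTKO run 2 alone (57.7%) and 1 in NTKO run 1 alone (1.06%), while 1 was shared by the run 1 samples only (0.169%) and 1 by the run 2 samples only (13.3%). No region of the stretch was found in TKO cells alone, against 11.0% of all regions. Of all TKO peaks, 17.7% in run 1 and 23.7% in run 2 had no NTKO peak of the same run, whereas 0 of 6 and 0 of 23 members did.

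**Figure D3:**
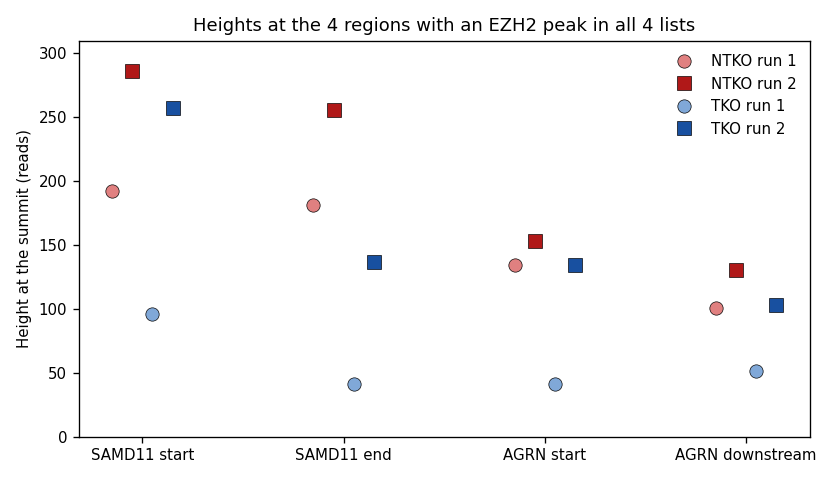
Points give the height (y axis, reads at the summit) of each sample at the 4 regions with a peak in all 4 lists (x axis), with circles for run 1 and squares for run 2. At the SAMD11 end both NTKO points, 181 and 256, lie above both TKO points, 41 and 137, whereas at the other 3 regions TKO run 2 reaches or passes NTKO run 1.

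All 4 regions with a peak in every list were higher in NTKO than in TKO cells within each run. This held for 71.2% of the 326 such regions of the genome. Both NTKO heights were above both TKO heights in 1 of the 4, the SAMD11 end, and in 12.0% of the 326. After division by the sample medians, the SAMD11 start gave log2 differences of -0.05 and -0.09 in runs 1 and 2, the AGRN start 0.66 and -0.05, and the downstream AGRN region -0.07 and 0.10. Only the SAMD11 end kept the same direction in both runs with NTKO higher.

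The order of the sites by their NTKO to TKO ratio was not the same in the 2 runs. In run 1 the ratio was 4.41 at the SAMD11 end, 3.27 at the AGRN start, 2.00 at the SAMD11 start and 1.98 at the downstream AGRN region. In run 2 it was 1.87, 1.14, 1.11 and 1.26 at the same sites. The SAMD11 end came first in both.

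Peaks of the same run that were each other's largest overlap gave 5 pairs in run 1 and 11 in run 2. The NTKO peak was the taller in 5 of 5 and 11 of 11 pairs, against 97.7% and 73.3% of all pairs in the lists. The median log2 height ratio was 1.00 in run 1 and 0.48 in run 2, against 0.86 and 0.25 over all pairs. The NTKO peak was also the wider in 5 of 5 and 11 of 11, against 91.0% and 80.4% of all pairs. The median log2 width ratio was 2.16 in run 1 and 1.15 in run 2, against 1.47 and 0.83 over all pairs. Pairs of 1 stretch are neighbours and not independent.

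**Figure D4:**
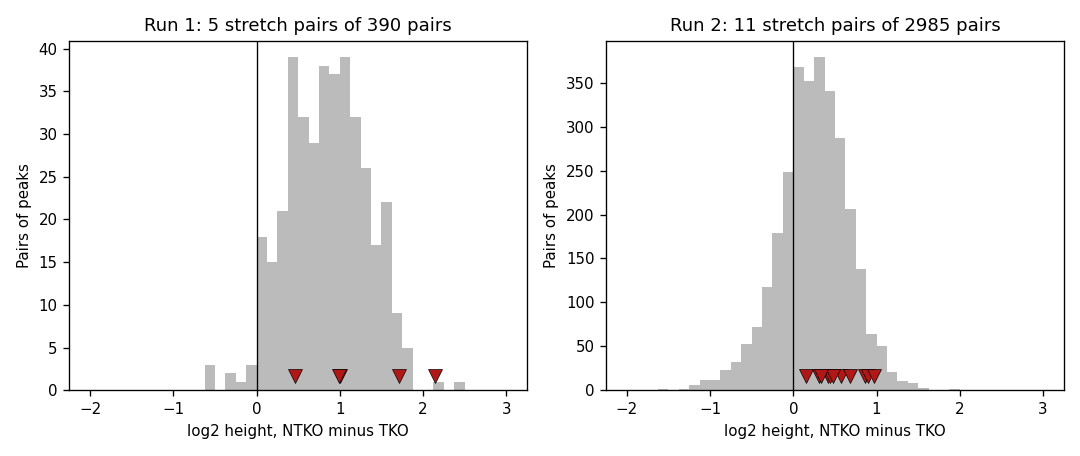
Grey bars count all pairs of NTKO and TKO peaks of a run (y axis) by their log2 height difference (x axis, NTKO minus TKO), and red triangles mark the pairs of the stretch. The 5 triangles of run 1 run from 0.46 to 2.14 and the 11 of run 2 from 0.15 to 0.97, all to the right of 0. Of all pairs of the run, 21.5% to 99.5% had a smaller ratio than the stretch pairs in run 1 and 40.1% to 96.6% in run 2, and 2 of the 5 and 3 of the 11 were above 94%.

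The height ratio of the run 2 pairs went up and down along the stretch. In order of position it was 1.82 before SAMD11, 1.11 at the SAMD11 start, 1.34, 1.35 and 1.87 further into SAMD11, and 1.49 between SAMD11 and HES4. From the AGRN start on it was 1.39, 1.24, 1.26, 1.61 and 1.97. The 1.39 set the NTKO peak of 153 reads against its largest overlap, a TKO peak of 110 reads. Against the tallest TKO run 2 peak there, of 134 reads, the ratio was 1.14. The largest width ratios were at the AGRN start in run 1, 1959 bp against 113 bp, and at chr1:960544-966161 in run 2, 5617 bp against 480 bp for the closest partner.

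Broad NTKO peaks often faced several TKO peaks. In run 2, 6 NTKO members overlapped 2 or more TKO peaks, up to 4, and 6 overlapped exactly 1. In run 1 these numbers were 1 and 4. Every TKO member overlapped exactly 1 NTKO peak of its run, 6 of 6 and 23 of 23, so no TKO peak bridged a gap between NTKO peaks. NTKO run 2 regions that had a TKO run 2 peak reached 174 reads and covered 5165 bp at the median (n = 12), and those without reached 62.0 reads and 328 bp (n = 23). The sites missing from TKO run 2 were mostly low and short, and the tallest of them was the peak of 144 reads near HES4.

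Within a line, run 2 was higher than run 1 at 13 of the 14 regions found in both NTKO samples, with a median ratio of 2.10, and at 4 of 4 in TKO cells, with a median ratio of 2.97. The covered length of the stretch rose 1.97-fold from run 1 to run 2 in NTKO and 6.05-fold in TKO cells. In TKO cells the ratio between runs was thus of the same size as the ratio between lines in run 1, which was 7.26.

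The place of the summit, which the selection did not use, differed by run at some sites. At the SAMD11 end the summits of NTKO run 1 and TKO run 1 were 1 bp apart, at 867028 and 867027, and those of run 2 were 383 bp apart, while the runs of a line were 666 bp (NTKO) and 1048 bp (TKO) apart. At the downstream AGRN region the lines were 20 bp apart in run 1 and 24 bp in run 2, against 672 bp and 628 bp between runs. At the AGRN start no such pattern was seen: the lines were 18 bp apart in run 1 but 858 bp in run 2, and the runs 793 bp apart in NTKO but 47 bp in TKO cells. At the SAMD11 start NTKO run 1, NTKO run 2 and TKO run 2 had their summits at 850045, 850024 and 850019, before the gene's start, and TKO run 1 had its summit at 851073, 93 bp inside it. Summits were closer between lines of a run than between runs of a line, summed over both, at 3 of these 4 regions and at 47.9% of the 326. At 1 of the 3, the SAMD11 start, the sums were nearly equal, 1033 bp against 1075 bp, and only TKO run 1 stood apart. Over the 326 regions the median distance was 121.5 bp between lines in run 1, 40.5 bp between lines in run 2, 118.5 bp between the NTKO runs and 175.5 bp between the TKO runs.

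**Figure D5:**
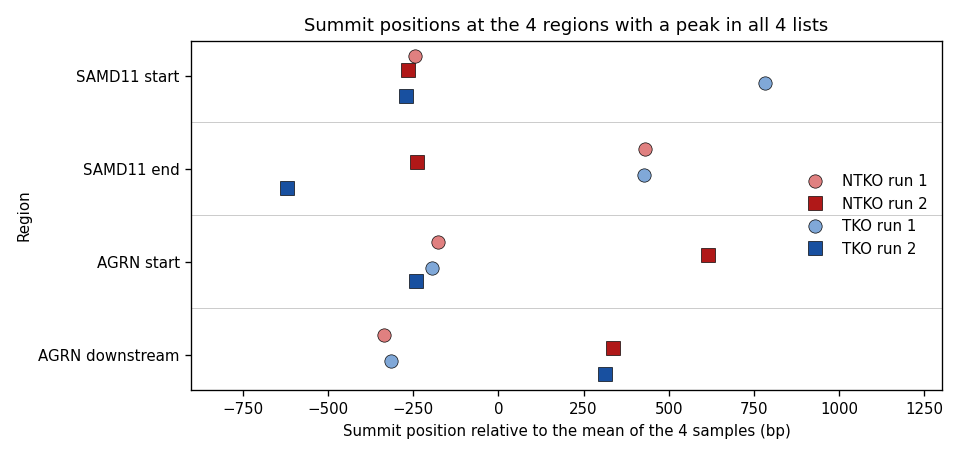
Points give each sample's summit (x axis, bp from the mean summit of the 4 samples) at the 4 regions with a peak in every list (y axis), with circles for run 1 and squares for run 2. At the SAMD11 end the circles lie 1 bp apart, and at the downstream AGRN region the circles form 1 pair and the squares another.

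The limits of the stretch fell close to other peaks. The member nearest its start was an NTKO run 2 peak at chr1:840194-847283 of 186 reads and 7089 bp, the widest of all members. Just outside was an NTKO run 2 peak of 86 reads and 1085 bp that ended 95 bp before the stretch. At the far end the NTKO run 2 peak over chr1:983288-986261 was inside. A TKO run 2 peak of 91 reads and 576 bp began 634 bp past the end and was outside, as was an NTKO run 1 peak of 63 reads and 591 bp that began 564 bp past it. The TKO run 2 peak lay under that NTKO run 2 member, which therefore had a TKO partner outside the stretch.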

How the data were processed

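EZH2 ChIP-seq peak lists of 2 NTKO and 2 TKO samples were used, with groups and run numbers from the labels. Reads were processed with CASAVA 1.8 and BWA per the labels. Per the study's methods, the authors mapped them to hg18, excluded reads that shared a position, and called each sample's peaks separately against its input with ChIPseeqer (a fold of 2, a −log10 p of 15). Each deposited list gives per peak a score (log10 p), a signal (mean level of reads), the height (a signal at the summit), the summit's place as a percent of the peak, and the width in bp, equal to end minus start in every peak. The study's methods state that data were normalized to the input lane of each sample. Whether the deposited signal carries this, or a scaling to library size, is not stated. Heights are called reads here with that limit. Positions are as deposited: 97 of 19721 peaks end past a GRCh37 chromosome, so that build was not used for them. The lists do not give library depth, so a counting error cannot be stated.

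Members and lists were chosen with earlier results of these data known. All peaks sharing 1 base with the stretch are members. Peaks were given in full when tallest or widest in a zone or found in all 4 lists. Differences are means over samples of log2 values, with the SD over runs. No test was run between lines, since these values chose the stretch. Pairs are peaks of a run that are each other's largest overlap, and regions join peaks of all lists that share a base. Windows of 145 kb started at the stretch. Alternatives were other flanks, mean heights, scaled heights, filled gaps, single runs, a −log10 p of 20, a replicate block and leaving out each sample. The pairing and merging steps were tested on simulated data. Python 3.11.15, numpy 2.4.6, pandas 2.3.3 and matplotlib 3.10.9 were used. Inputs and an hg18 annotation were not analysed here.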

Additional observations from a re-analysis of the deposited data

How the results depend on the processing

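Of 53 recomputed values for 6 results, 48 kept their direction and moved by less than the spread between runs, 3 moved by more and 2 changed sign. Part of the 48 was fixed in advance. With 2 runs per line, leaving out 1 sample cannot move a log2 difference by more than this spread, and the replicate block leaves it unchanged. Covered length at AGRN counted among the 48 although its ratio of 7.36 became 1.96 without TKO run 1 and 27.6 without TKO run 2. The log2 height difference at SAMD11 turned from 0.58 to -0.069 with heights divided by the sample medians, a scaling that by construction removes the difference typical of shared regions, and ranged from -0.13 (without TKO run 1) to 1.29 (without TKO run 2) when single samples were left out. The covered length ratio of the stretch, 3.06 over both runs, was 7.26 in run 1 alone. With a sample left out it ranged from 1.78 (TKO run 1) to 10.8 (TKO run 2), and the peak number ratio, 2.21, from 1.39 (TKO run 1) to 5.33 (TKO run 2). The same ranges on the log2 scale were 0.28 to 2.11 for covered length at SAMD11, 0.14 to 1.53 for height at AGRN and 0.97 to 4.79 for covered length at AGRN, with TKO run 1 or TKO run 2 left out at each limit. At AGRN the covered length ratio was also 12.1 without NTKO run 1 and 4.46 without NTKO run 2.

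Under the replicate block by run, the peak number ratio was 2.70 and the covered length ratio 4.14. The differences at SAMD11 and AGRN equalled the unpaired ones by construction (0.58, 1.19, 0.83 and 2.88). The study describes the runs as independent replicates, and its methods do not say whether samples of the same run number were handled together. In both lines run 2 was the higher: the median heights over the 326 regions were 97.5 and 163.5 in NTKO and 47.0 and 138.5 in TKO cells. HES4 had no value under any setting, since no TKO list had a peak in its zone, nor did AGRN at a −log10 p of 20, where TKO run 1 had no peak left. Unknown depth limits every height and every absence from a list.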
